A study of Mus musculus with 6 samples.

Results

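C1q, C3 and complement receptor 3 form the part of the complement system best known for tagging synapses and debris that microglia remove. C1q is the recognition molecule of the classical pathway and is built from equal numbers of A, B and C chains, encoded by C1qa, C1qb and C1qc. When bound C1q activates its proteases, C3 is cleaved and its fragments attach to the target, and complement receptor 3 on microglia binds those fragments. Itgam encodes the alpha chain of this receptor (CD11b), which pairs with the beta-2 chain encoded by Itgb2. In the mouse brain, microglia are the main source of C1q. These 5 genes were chosen by name, and all 5 were among the 4656 rows of the deposited table.

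The libraries came from microglia, the macrophages that live in the brain, isolated from mouse brains by flow cytometry. There were 3 libraries from Nus1cKO mice (cKO), in which Nus1 was conditionally deleted, and 3 from Nus1fl/fl mice (Ctrl), in which the gene carries loxP sites for Cre. Per the labels' protocols, mice received tamoxifen by intraperitoneal injection (100 mg/kg, once on each of 5 days, at postnatal day 28), and brains were taken 30 days after the last dose. The Cre driver, the presence of Cre in Ctrl mice, the strain and the sex are not stated in the labels, so an effect of Cre and the loss of Nus1 cannot be told apart. The protocols also describe keeping primary microglia in medium with serum, without saying whether the sequenced cells were kept that way. The series title ties loss of microglial NUS1 to dopaminergic neurodegeneration, and the comparison of cKO with Ctrl asks which microglial transcripts differ.

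Nus1 itself, which encodes a subunit of the enzyme that makes dolichol, was at 14.1, 13.6 and 13.8 TPM in the cKO libraries, against 59.4, 60.9 and 59.2 TPM in the Ctrl libraries, so every library fitted its label. TPM is the share of a gene among all transcripts, scaled by its length, as computed by the authors. The 4656 rows all had an authors' q-value under 0.05, and held 10786150 to 10983767 reads per library in cKO and 11002519 to 11033144 in Ctrl. Genes without a row are unknown here, since the table holds called genes alone. Of 15 microglia markers, 4 had a row (Csf1r, Trem2, Cx3cr1 and Fcrls). Their summed level was 327 to 340 TPM in cKO and 366 to 374 TPM in Ctrl, mostly from Trem2 and Csf1r. Cx3cr1 and Fcrls were far lower in every library, so the sum says little about them. P2ry12, Tmem119 and Sall1, which define microglia against other macrophages, had no row, so the labelled cell type could be checked only in part.

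The C1q chains lie side by side on chromosome 4, all on the minus strand, within 18719 bp (mm39, from the deposited table). C1qb (ENSMUSG00000036905) spans 136607437 to 136613511, C1qc (ENSMUSG00000036896) spans 136617112 to 136620242, and C1qa (ENSMUSG00000036887) spans 136623227 to 136626155. The gaps between them are 3600 and 2984 bp. C3 (ENSMUSG00000024164) spans 57510967 to 57535136 of chromosome 17 (minus strand), and Itgam (ENSMUSG00000030786) spans 127661812 to 127717663 of chromosome 7 (plus strand). The values are given per gene and do not separate transcripts.

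The 250 bases before the annotated start of C1qb and C1qc, which fell together, and of Itgam, which rose, follow, because these genes moved in opposite directions. They are RefSeq sequences on GRCm38.p6, at chr4:136886201-136886450 (minus strand), chr4:136892915-136893164 (minus strand) and chr7:128062390-128062639 (plus strand), written 5′ to 3′ on the strand of the gene. Capitals mark matches to the motifs searched. Of the 5 genes, 4 were matched in the RefSeq table; C1qa was the other.
C1qb: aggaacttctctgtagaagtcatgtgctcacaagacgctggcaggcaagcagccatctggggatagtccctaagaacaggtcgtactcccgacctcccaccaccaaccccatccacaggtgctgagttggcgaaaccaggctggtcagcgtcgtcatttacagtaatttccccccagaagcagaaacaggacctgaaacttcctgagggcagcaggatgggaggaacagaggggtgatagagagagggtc
C1qc: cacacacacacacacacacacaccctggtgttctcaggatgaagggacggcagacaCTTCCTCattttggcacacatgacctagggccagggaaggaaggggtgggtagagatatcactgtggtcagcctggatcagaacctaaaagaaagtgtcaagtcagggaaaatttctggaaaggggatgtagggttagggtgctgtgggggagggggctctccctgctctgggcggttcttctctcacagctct
Itgam: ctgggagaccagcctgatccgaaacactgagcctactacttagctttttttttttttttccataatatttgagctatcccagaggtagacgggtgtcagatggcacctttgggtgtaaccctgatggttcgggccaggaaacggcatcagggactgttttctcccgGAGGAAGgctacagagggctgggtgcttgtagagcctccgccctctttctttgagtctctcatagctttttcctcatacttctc

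The motifs were searched on both strands. They were GAGGAAG for PU.1, the myeloid master factor, TGCTGAC for MAF proteins, GGGANTTTC for NF-kB, TTGCNNNAA for C/EBP, GAAANNGAA for interferon response elements and TATAAA for the TATA box. The PU.1 letters were found in Itgam from 84 to 78 bases before the start, and on the opposite strand in C1qc from 194 to 188 bases before it. They are present in 10.6% of the 32851 RefSeq windows of the same length. The windows of C1qb and C3 held none of the 6 motifs. The corresponding shares of all windows were 3.81% for MAF, 0.941% for NF-kB, 8.29% for C/EBP, 7.13% for the interferon motif and 12.4% for the TATA box. In C3 a TATAAA begins at base 15 counted from the annotated start as 1, outside the window searched. These matches describe letters and no binding was measured.

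All 3 C1q chains were lower in cKO microglia, at 61.6% to 63.5% of the Ctrl level in the fit, while C3 was 1.35-fold and Itgam 1.66-fold higher. The direction was thus opposite between the recognition molecule that starts the classical pathway and the later component and its receptor. The fit was edgeR's quasi-likelihood test on all rows, with a threshold of adjusted p 0.05 over the 15835 genes the authors tested. By that test 3 of the 5 genes were called lower and 2 higher. Among the 4641 rows tested, 50.2% were called lower and 46.4% higher, so a call by itself sets none of these 5 apart in a table made of called genes. DESeq2 called fewer rows lower: 58.9% of its calls were higher, against 48.0% of the calls of edgeR. Among the 15835 genes of the authors' own comparison, 15.7% were called lower and 13.7% higher. In bulk libraries a smaller share of cells rich in a transcript cannot be told apart from less of it per cell.

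C1qa, the A chain, had 45.1, 47.9 and 43.1 TPM in cKO libraries, against 84.2, 62.3 and 76.6 TPM in Ctrl libraries. The highest cKO library lay 14.3 TPM under the lowest Ctrl library, which was replicate 2. The means were 45.4 ± 2.42 TPM in cKO and 74.3 ± 11.1 TPM in Ctrl (SD, n = 3 each). On the log2 scale the fitted difference was -0.70 with an SE of 0.07 (edgeR, adjusted p = 3.9e-10). DESeq2 gave a larger SE of 0.14 (adjusted p = 2.0e-05). The authors' deposited table gives -0.74. On the log2 scale C1qa had the widest spread within groups of the 5 genes, and it rested on 363 to 409 reads per library in cKO and 519 to 705 in Ctrl.

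C1qb, the B chain, had 82.5, 81.0 and 75.4 TPM in cKO libraries, against 135, 118 and 133 TPM in Ctrl libraries. The groups were 35.2 TPM apart. The means were 79.6 ± 3.73 TPM in cKO and 129 ± 9.50 TPM in Ctrl (SD, n = 3 each), and the fitted log2 difference was -0.68 with an SE of 0.05 (edgeR, adjusted p = 2.2e-14). The value in the authors' deposited table is -0.72. C1qc, the C chain, had 97.0, 92.4 and 86.7 TPM in cKO libraries, against 159, 130 and 149 TPM in Ctrl libraries, and again replicate 2 was the lowest of Ctrl. Its means were 92.0 ± 5.20 TPM in cKO and 146 ± 15.1 TPM in Ctrl (SD, n = 3 each). Its fitted log2 difference was -0.66 with an SE of 0.05 (edgeR, adjusted p = 5.5e-13), and the authors' deposited table has -0.70. Few rows had changes as far down: 1.21%, 1.25% and 1.47% of the tested rows had a lower log2 fold change than C1qa, C1qb and C1qc in that order.

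C3, the component whose fragments mark targets for uptake, had 46.8, 45.4 and 45.6 TPM in cKO libraries, against 35.1, 34.7 and 34.3 TPM in Ctrl libraries. The libraries of each group were close together and the groups were 10.4 TPM apart. Its means were 45.9 ± 0.712 TPM in cKO and 34.7 ± 0.400 TPM in Ctrl (SD, n = 3 each). C3 was thus higher by 0.43 on the log2 scale, with an SE of 0.03 (edgeR, adjusted p = 1.4e-14). In the authors' deposited table it is higher by 0.39. This is a moderate change for the table, as 18.7% of tested rows had a higher one.

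Itgam, the receptor chain, had 105, 97.6 and 100.1 TPM in cKO libraries, against 62.5, 59.3 and 63.1 TPM in Ctrl libraries. Its means were 101 ± 3.59 TPM in cKO and 61.6 ± 2.03 TPM in Ctrl (SD, n = 3 each), with 34.6 TPM between the groups. Itgam was higher by 0.73 on the log2 scale, with an SE of 0.03 (edgeR, adjusted p = 6.5e-23), and by 0.69 in the authors' deposited table; 8.10% of tested rows had a higher one. With 4777 to 5130 reads per library in cKO and 2923 to 3078 in Ctrl, Itgam was the most deeply covered of the 5 genes. An exact permutation test (two-sided) on the log2 CPM of each gene (counts scaled by library size with TMM) returned p = 0.1. That is as low as 3 libraries a group can reach. The absence of overlap was shared by most rows: TPM values of the groups did not overlap, with cKO lower, in 51.5% of the 4656 rows, and with cKO higher in 46.1%.

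**Figure D1:**
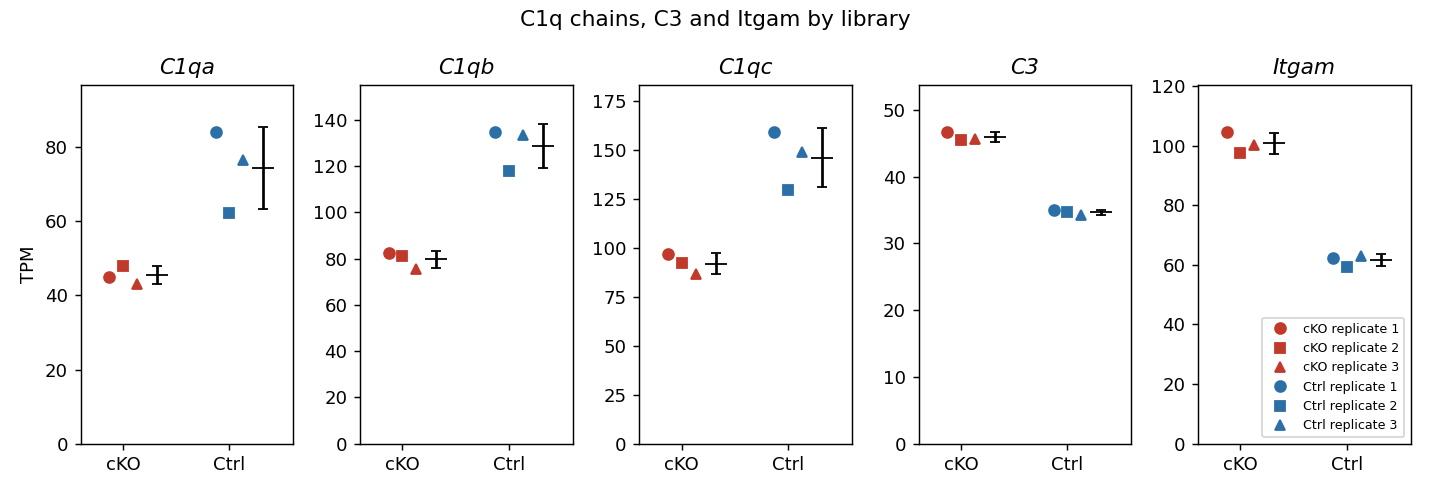
Authors' TPM (linear axis from 0) of C1qa, C1qb, C1qc, C3 and Itgam in each library, with cKO in red left of Ctrl in blue, 1 symbol per replicate, and black marks for mean ± SD (n = 3). The C1q chains are lower in every cKO library, with Ctrl replicate 2 the lowest of Ctrl, while C3 and Itgam are higher in every cKO library.

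**Figure D2:**
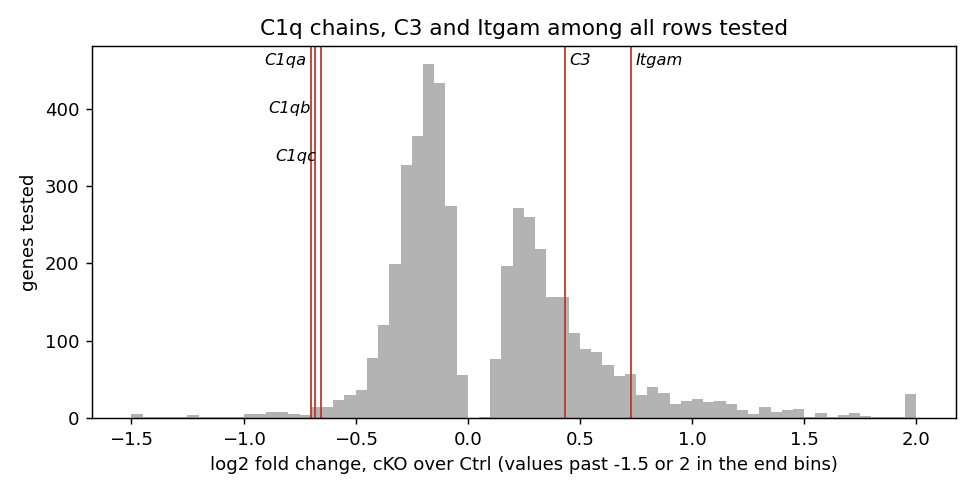
Number of tested rows by edgeR log2 fold change, cKO over Ctrl, in bins along the horizontal axis (values past its ends in the end bins), with red lines at C1qa, C1qb, C1qc, C3 and Itgam. Few rows lie near 0, in a table that holds called genes alone. The C1q lines at -0.70, -0.68 and -0.66 stand in the sparse lower end, and C3 at 0.43 and Itgam at 0.73 within the broader upper side.

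Levels of the 5 genes changed their order between the groups. By mean TPM, a scale per length, cKO had Itgam first, then C1qc, C1qb, C3 and C1qa. In Ctrl the order was C1qc, C1qb, C1qa, Itgam and C3. C3 and C1qa in cKO, at 45.9 and 45.4 TPM, differed by less than the SD of C1qa and their values overlapped. In cKO the lowest Itgam library was at 97.6 TPM and the highest C1qc library at 97.0 TPM. In Ctrl, C1qc overlapped with C1qb and C1qa with Itgam, whose highest library (63.1 TPM) was above the lowest of C1qa (62.3 TPM). Ranked by TPM over the 4656 rows, C1qc stood at place 1144 in cKO and 761 in Ctrl, and Itgam at place 1044 in cKO and 1695 in Ctrl.

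A ratio of 2 genes within 1 library does not depend on how libraries are scaled to each other. The C1q chains kept nearly constant proportions: C1qa made up 20.1% to 21.7% of the summed C1q TPM in cKO and 20.1% to 22.2% in Ctrl, C1qb 36.6% to 36.8% in cKO and 35.6% to 38.0% in Ctrl, and C1qc 41.7% to 43.2% in cKO and 41.5% to 42.1% in Ctrl. The summed level was 225, 221 and 205 TPM in cKO libraries, against 378, 310 and 359 TPM in Ctrl libraries. The log2 ratio of C1qa to C1qc was -1.02 ± 0.08 in cKO and -0.98 ± 0.07 in Ctrl (SD, n = 3 each), a difference of -0.04 whose 9 pairwise values between libraries ran from -0.18 to 0.11 (exact permutation p = 0.6). For C1qb to C1qc the difference was -0.03, with pairwise values from -0.09 to 0.05 (exact permutation p = 0.5), and for C1qa to C1qb it was -0.01, from -0.19 to 0.16 (exact permutation p = 0.9). The groups overlapped in each of these ratios, and differences between the chains up to these bounds could not be seen with 3 libraries a group.

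Ratios between the chains and the other genes did not overlap. Itgam stood at 1.47, 1.37 and 1.53 times the geometric mean of the C1q chains in cKO libraries, against 0.513, 0.603 and 0.548 times in Ctrl libraries. The shift between groups was 1.40 on the log2 scale, or 2.63-fold, with pairwise values from 1.19 to 1.57. C3 stood at 0.657, 0.639 and 0.696 times the C1q mean in cKO, against 0.288, 0.353 and 0.298 times in Ctrl, a shift of 1.09 or 2.13-fold with pairwise values from 0.86 to 1.27. Itgam also moved against C3, at 2.24, 2.15 and 2.19 times its level in cKO and 1.78, 1.71 and 1.84 times in Ctrl, a shift of 0.31. Each exact two-sided permutation p was 0.1, the smallest possible, and 0.175 after Benjamini-Hochberg adjustment over the 7 ratios computed.

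**Figure D3:**
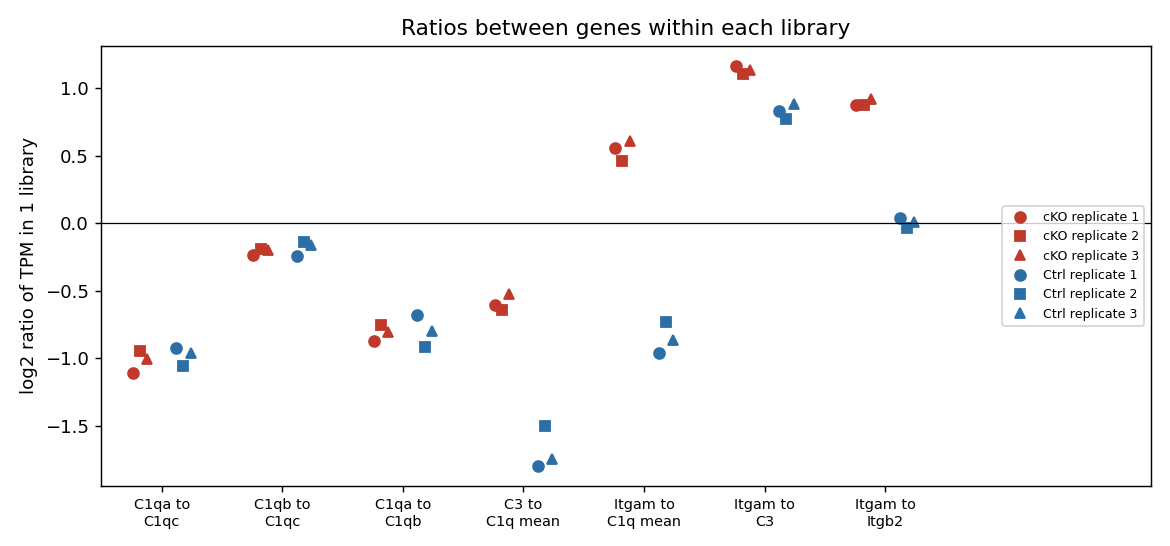
Log2 ratio of TPM between pairs of genes within each library, with cKO in red left of Ctrl in blue and 1 symbol per replicate; the C1q mean is the geometric mean of the chains. The groups overlap for the ratios among C1q chains and lie apart for C3 or Itgam against C1q, Itgam against C3 and Itgam against Itgb2.

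The partner chain of Itgam went the other way. Itgb2, which every beta-2 integrin needs to reach the surface, had 57.1, 53.4 and 52.9 TPM in cKO libraries, against 60.9, 60.9 and 62.6 TPM in Ctrl libraries. Its log2 fold change was -0.16 ± 0.03 (SE, edgeR, adjusted p = 0.00023), and it was called in all 20 alternative settings. Itgam was at 1.84, 1.83 and 1.89 times the level of Itgb2 in cKO libraries, against 1.03, 0.974 and 1.01 times in Ctrl libraries, so that transcripts of the chains were near equal in Ctrl alone. The other alpha chains with a row also rose. Itgax, the alpha chain of complement receptor 4, was at 13.4 ± 0.214 TPM in cKO and 8.03 ± 0.230 TPM in Ctrl (SD, n = 3 each), with a log2 fold change of 0.74. Itgal, the alpha chain of LFA-1, was at 29.3 ± 0.428 TPM in cKO and 24.2 ± 1.35 TPM in Ctrl, with a log2 fold change of 0.29. The summed alpha chains came to 2.64 ± 0.06 times Itgb2 in cKO and 1.53 ± 0.05 times in Ctrl. Protein was not measured.

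Of 22 genes listed for beta-2 integrins and signalling below complement receptor 3, 10 had a row and were tested, of which 7 rose and 2 fell, beside 46.4% and 50.2% of all tested rows. Their median was 0.33 on the log2 scale, beside -0.08 over all rows tested. Lyn, a Src-family kinase, rose by 0.37 and the GTPase Rac2 by 0.12. The adaptor Tyrobp, named after its value was seen, fell by 0.11, but its groups overlapped and its call ended in 6 settings, among them RLE and upper-quartile scaling. The list shares Itgam, Itgax and Itgb2 with the complement receptors.

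Across the complement system, 16 of 57 listed genes had a row, of which 7 rose, 8 fell and 1 did not pass. Of all tested rows 46.4% were called higher and 50.2% lower. The median of the listed genes was -0.07, close to that of all rows. Without the 5 genes above, 5 of the remaining 11 rose and 5 fell. Among recognition molecules and early proteases, 4 of 14 had a row and all 4 fell, beside 50.2% of all tested rows. The C1q chains among them belong to the 5 genes chosen by name. The other was the scavenger collectin Colec12, lower by 0.11, whose call ended with upper-quartile scaling and with DESeq2. The C1q-associated proteases C1ra and C1s1 had no row. C2, the protease of the classical C3 convertase, fell by 0.81 ± 0.20 (SE; -0.99 to -0.44 over the alternatives), at a low level of 1.32 ± 0.264 TPM in cKO and 2.33 ± 0.503 TPM in Ctrl (SD, n = 3 each).

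Besides C3, the component that rose was Cfp (properdin), which stabilises the alternative convertase, with 88.6 ± 3.73 TPM in cKO and 67.2 ± 1.61 TPM in Ctrl (SD, n = 3 each) and a log2 fold change of 0.41. Among regulators, clusterin (Clu), which blocks the terminal complex and also marks astrocytes, rose by 0.49, with 74.2 ± 1.77 TPM in cKO and 53.3 ± 1.58 TPM in Ctrl. C3ar1 and C5ar1, the anaphylatoxin receptors, and C4b, Cfb and Cfd had no row. Of 12 receptors and binding partners, 7 had a row, of which 4 rose and 2 fell, beside 46.4% and 50.2% of all tested rows. Itgam, 1 of the 5 genes chosen by name, is among the 4 that rose. Lrp1 did not pass (log2 fold change -0.03, with the sign turned by RLE and upper-quartile scaling and by DESeq2). Calreticulin (Calr), a chaperone of the endoplasmic reticulum that binds C1q when it is at the cell surface, rose by 0.66 to 1603 ± 31.2 TPM in cKO, against 1023 ± 5.68 TPM in Ctrl. Cd93, first described as a receptor for C1q, rose by 0.37, and C1qbp, a mitochondrial protein able to bind C1q heads, fell by 0.12.

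**Figure D4:**
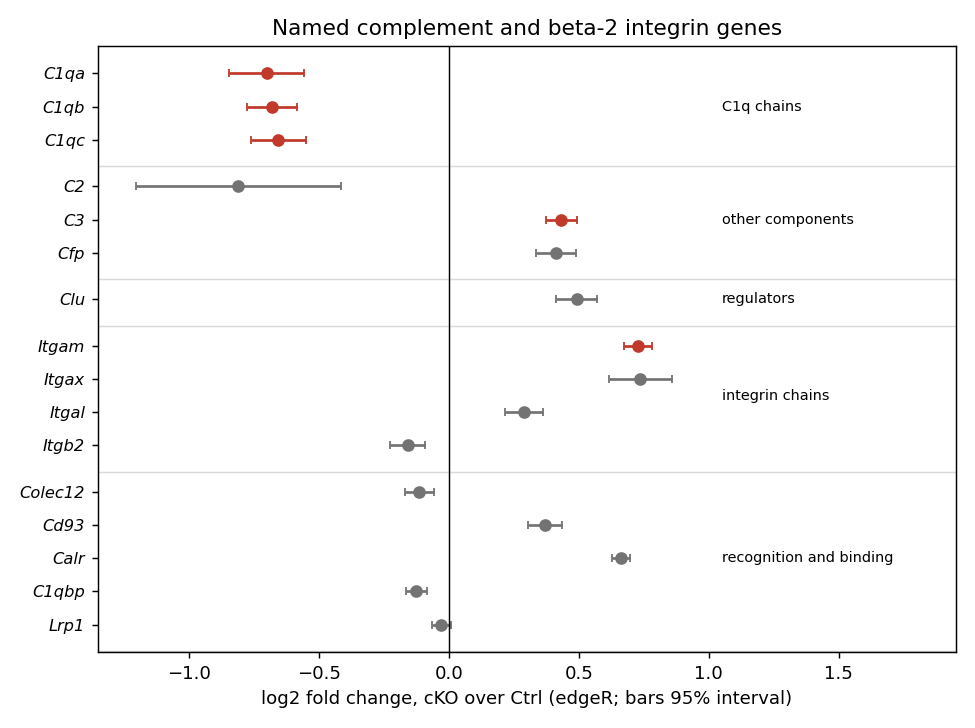
EdgeR log2 fold change, cKO over Ctrl, of complement and beta-2 integrin genes named in the text, grouped by role; points are estimates, bars 95% intervals, and red marks C1qa, C1qb, C1qc, C3 and Itgam. The bars rest on the edgeR SE, which for the C1q chains was smaller than that of DESeq2. Genes that bind C1q or recognise targets stand in the last group. The C1q chains and C2 lie left of 0, and C3, Cfp, Clu and the integrin alpha chains right of it, with Itgb2 at -0.16.

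Other genes of synapse and debris uptake went both ways. Of 25 listed, 14 had a row, of which 7 rose and 7 fell, beside 46.4% and 50.2% of all tested rows. The median of these 14 was 0.06. Gas6, the ligand that bridges dying cells to TAM receptors, fell by 0.98 ± 0.08 (SE), with 11.7 ± 1.87 TPM in cKO and 23.3 ± 2.14 TPM in Ctrl (SD, n = 3 each). The fractalkine receptor Cx3cr1 fell by 0.52 and the lysosomal protein Cd68 by 0.15. Cd47, a signal against uptake, rose by 0.54, with a mean of 62.2 TPM in cKO and 42.5 TPM in Ctrl; Mfge8, an opsonin for phosphatidylserine, rose by 0.27 and Dock2 by 0.18. Proteins with a collagen-like stem as in C1q had rows for 2 of 11, Colec12 and the scavenger receptor Msr1, which fell by 0.51.

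Of 26 transcription factors of myeloid cells, 15 had a row, of which 11 rose and 4 fell, beside 46.4% of all tested rows called higher and 50.2% called lower. Their median was 0.34, beside -0.08 over all rows; DESeq2, RLE and upper-quartile scaling each called 1 of them lower. The interferon-linked factors Irf7, Irf9 and Irf1 rose by 2.06, 0.84 and 0.64, and Mef2a by 0.28. Spi1, which encodes PU.1 and was named after its value was seen, was at 226 ± 4.49 TPM in cKO and 241 ± 2.21 TPM in Ctrl, and its decrease of 0.08 lost its call in 6 settings.

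Libraries of 1 group differed more for C1q than for most genes of like level. The within-group SD of log2 CPM (counts scaled by library size with TMM) was 0.17 for C1qa, 0.09 for C1qb and 0.12 for C1qc, higher than in 98.9%, 96.0% and 99.1% of genes within 0.5 log2 units of their level. Counting error alone would give 0.06, 0.05 and 0.05. The SD of Itgam, at 0.05, was higher than in 95.8% of genes of its level. C3, at 0.03, was near its counting error of 0.03, and 41.6% of genes of like level had a lower SD. The chains moved together: all 3 were lowest of Ctrl in replicate 2, by 0.25, 0.13 and 0.17 below the group mean for C1qa, C1qb and C1qc, and all 3 were lowest of cKO in replicate 3, by 0.07, 0.08 and 0.09. Itgam was also lowest of Ctrl in replicate 2 and lowest of cKO in replicate 2, and C3 was lowest of Ctrl in replicate 3 and, narrowly, of cKO in replicate 3. Over all tested rows 33.4% were lowest of Ctrl in replicate 2 and 31.5% were lowest of cKO in replicate 3.

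Markers of border-associated macrophages, which surround brain vessels and line the meninges, moved with the C1q chains in part. Of 12 markers 7 had a row. Of these, 6 fell and 1, Siglec1, which interferon also induces, rose, beside 50.2% and 46.4% of all tested rows. Such a fall was not particular to this list. All 4 tested microglia markers fell, and of 4 tested monocyte markers 3 fell and 1 rose. The median log2 fold change was -0.64 for border macrophage, -0.28 for microglia and -0.53 for monocyte markers. The summed level of the 7 markers was 160, 150 and 154 TPM in cKO libraries, against 205, 173 and 207 TPM in Ctrl libraries. In log2 CPM all 7 were lowest of Ctrl in replicate 2, as were the C1q chains, all 4 monocyte markers tested and 2 of the 4 microglia markers. In cKO 4 were lowest in replicate 2 and 3 in replicate 3. Mrc1 had 4.93, 3.89 and 4.83 TPM in cKO libraries, against 10.1, 9.16 and 11.3 TPM in Ctrl libraries. Ms4a7 had 22.5, 20.2 and 19.4 TPM in cKO libraries, against 44.0, 33.6 and 40.2 TPM in Ctrl libraries. The defining markers Cd163, Lyve1, Pf4 and F13a1 had no row, none of the 7 was at 0 in all libraries, and the part of such cells in the C1q result was not tested.

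Other cell types had few rows. Of 10 monocyte markers 5 had a row, with summed levels of 2229 to 2481 TPM in cKO and 2787 to 2928 TPM in Ctrl, nearly all from S100a4; Ccr2 had no row and Ly6c2 was listed at 0 in Ctrl. Of 12 neutrophil markers, Csf3r alone had a row, at 17.6 to 21.1 TPM in cKO and 10.1 to 11.3 TPM in Ctrl, and S100a8, S100a9 and Ly6g had none. Neutrophils also carry Itgam, and the part of these cells in its change was not tested. Of 10 markers each, astrocytes had 3, oligodendrocytes 1 (25.9 to 28.0 TPM in cKO and 22.2 to 23.2 TPM in Ctrl), endothelial and mural cells 1 (0.510 to 0.780 TPM in cKO and 0.150 to 0.420 TPM in Ctrl) and neurons 0. The astrocyte markers had a summed level of 283 to 287 TPM in cKO and 219 to 225 TPM in Ctrl, from Cpe and Clu. Aldh1l1 was lower, at 0.13, 0.16 and 0 TPM in cKO libraries, against 0.34, 0.39 and 0.42 TPM in Ctrl libraries.

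**Figure D5:**
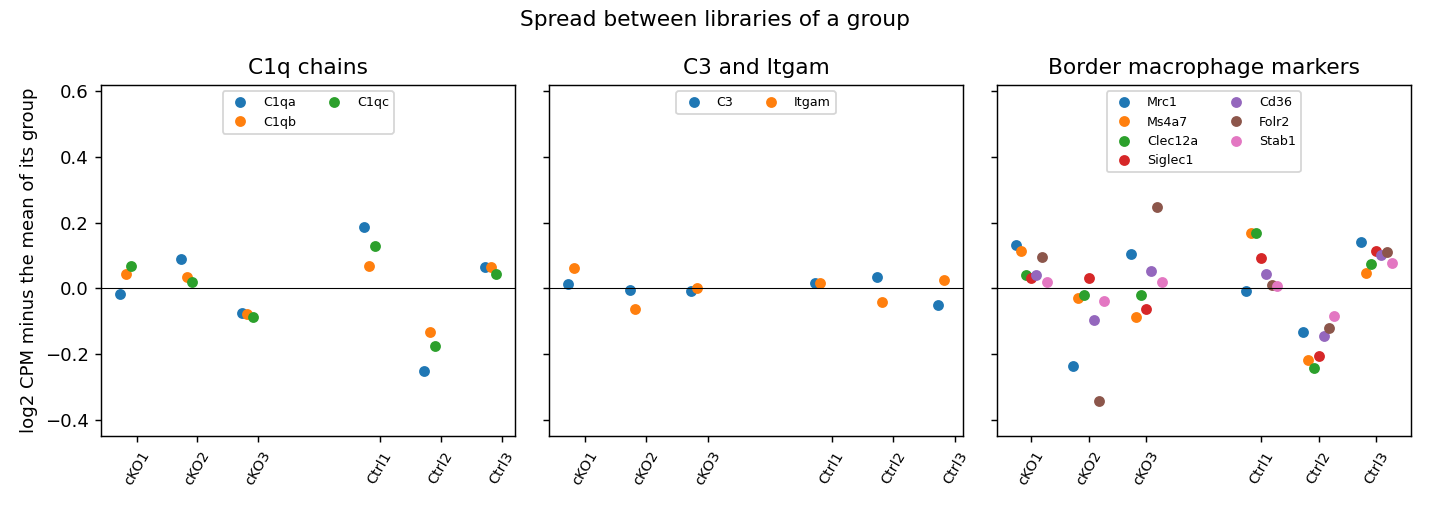
Log2 CPM of each gene minus the mean of its own group, by library, for the C1q chains, for C3 and Itgam, and for the 7 border macrophage markers with a row; cKO libraries stand left of Ctrl libraries. In Ctrl replicate 2 all C1q chains, all 7 markers and Itgam lie below 0, and C3 lies above it.

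The genes whose pattern over the 6 libraries was most like that of the C1q chains were, by root mean square distance of centred log2 CPM among 4339 genes (mean level 10 CPM or more), Clec12a (0.05), Clec7a (0.08), Ms4a6c (0.08), Mrps6 (0.08) and Zc3h8 (0.09). For comparison, the chains were 0.05 (C1qa), 0.03 (C1qb) and 0.02 (C1qc) from their own mean. The lectin receptor Clec7a had 24.8 ± 0.469 TPM in cKO and 37.6 ± 3.72 TPM in Ctrl (SD, n = 3 each). Its lowest Ctrl library was replicate 2 at 33.4 TPM, which is no separate observation, since likeness to the C1q pattern selected it. Clec12a also stands in the border macrophage list and Ms4a6c in the monocyte list. C3 was nearest to Plin3 (0.02), Erap1 (0.02), Zfyve1 (0.02), Tmbim6 (0.02) and Mroh1 (0.02), and Itgam to B430306N03Rik (0.02), Crebrf (0.03), Rnf144b (0.03), Cep162 (0.03) and Sema4c (0.04). These distances describe likeness of pattern alone.

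Beyond the cluster itself, the change of the C1q chains had no counterpart of like size among neighbouring rows. Within 500000 bp of the cluster the table held Luzp1, Kdm1a and Cdc42, named by position, which fell by 0.10, 0.14 and 0.10 on the log2 scale. Genes in this stretch without a row are unknown. Left-out libraries moved the size of the C1q changes more than that of the other genes: without Ctrl replicate 2 the log2 fold changes of C1qa, C1qb and C1qc were -0.82, -0.74 and -0.74, and without Ctrl replicate 1 C1qa was at -0.60 and C1qc at -0.59. All 5 genes were called in the same direction in all 20 alternatives.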

How the data were processed

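Messenger RNA libraries of mouse microglia were assigned to cKO or Ctrl from their titles. Bowtie2 2.4.5, DESeq2 1.34.0 and the build mm39 were used, per the submitters' processing notes; the program that counted reads is not stated. Per the file headers, the authors deposited a table of estimated counts, called expected counts, with FPKM, TPM and normalized counts per library. The deposited normalized signal is the count over a size factor per library (0.987 to 1.02). The authors' log2 ratios are cKO over Ctrl, with p-values and q-values deposited beside them. In 100% of the 4652 rows with p above 0 the q-value equals a Benjamini-Hochberg adjustment over 15835 genes (relative tolerance 1e-06), so the 4656 rows are the called genes alone. TPM in these rows came to 59.4% to 60.3% of a full library. Of the counts 11.1% were not whole (tolerance 1e-06). The 8 columns of averages were not used.

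Counts were rounded and fitted with edgeR 4.0.16 (R 4.3.3; TMM, filterByExpr, which removed 15 rows), and p-values were adjusted over 15835 genes, taking those without a row to be larger. Scaling and dispersions therefore rest on selected rows, and depth is known only for them. The fit was tested on simulated data. Log2 CPM used a prior count of 2, and SE is the log2 fold change over the square root of F. Single values were tested with exact permutation tests (SciPy 1.17.1, NumPy 2.4.6, pandas 2.3.3, Python 3.11.15; figures with matplotlib 3.10.9). No 2 libraries were identical: the median chi-square per gene between libraries of a group was 0.573 to 0.795, against 0.455 for counting noise alone. The labels call replicates biological without naming animals, so the p-values rest on spread between libraries that may be technical.

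Alternatives were RLE, upper-quartile, library-size and the authors' size-factor scaling, dropping the filter, keeping rows with 1 CPM or more in 3 libraries, fitting with DESeq2 1.42.0 or limma-voom, limma 3.58.1 on log2(FPKM + 1), log2(FPKM + 0.1) and log2(TPM + 1), a replicate block, counts rounded up, adjustment over the rows alone and each library left out. The genes and lists were chosen with earlier results of these data known. Named were the 5 genes, up to 6 members per list by adjusted p and the 5 nearest patterns; others are said to be named otherwise. Some list members stand in the counts but are not reported here by name.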

Additional observations from a re-analysis of the deposited data

How the results depend on the processing

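Over 20 alternatives the log2 fold changes ranged from -0.82 to -0.60 for C1qa, -0.74 to -0.63 for C1qb, -0.74 to -0.59 for C1qc, 0.39 to 0.48 for C3 and 0.69 to 0.77 for Itgam, and none of these 5 lost its call or turned. The SEs were larger with DESeq2, at 0.14, 0.07 and 0.10 for C1qa, C1qb and C1qc and 0.04 each for C3 and Itgam. With edgeR they were 0.07, 0.05, 0.05, 0.03 and 0.03 in that order. The highest adjusted p of the 5 genes was 0.00027, for C1qa with limma on log2(TPM + 1). Scaling moved the median of all rows by at most 0.05 on the log2 scale. Genes called lower numbered 1510 with DESeq2, against 2332, with 2168 called higher, so that 58.9% of calls were higher, against 48.0%. With RLE, upper-quartile scaling or DESeq2, 1 beta-2 integrin gene and 1 myeloid factor were called lower; with log2(FPKM + 1), log2(FPKM + 0.1) or log2(TPM + 1) these were 1 and 2. With upper-quartile scaling or DESeq2, 1 collagen-like gene was called lower. With a library left out, myeloid factors called lower ranged from 1 to 4, and the differences in log2 ratio ranged from -0.0799 to 0.0027 for C1qa to C1qc and from -0.0715 to 0.0480 for C1qa to C1qb (0.018 without cKO replicate 1), all within the spread; the cause was not tested.

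The replicate numbers did not pair the libraries: deviations of same-numbered libraries correlated at 0.06, -0.01 and -0.06 across genes, and 1 of 3 cKO libraries correlated best with its own number. With the replicate block 2155 genes were called higher and 2296 lower, and C1qa, C1qb, C1qc, C3 and Itgam were at -0.70, -0.68, -0.65, 0.43 and 0.73. The block changed no call of the 5 genes. C1qa had the fewest reads of the 5 genes, at a mean of 503 per library. Its within-group SD of 0.17 on the log2 scale was nonetheless above its counting error of 0.06.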
